A study of Mus musculus with 7 samples.

Results

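The genes described here are the receptors for serotonin, dopamine, noradrenaline and adrenaline, acetylcholine and histamine. They comprised every gene symbol of the count tables that starts with Htr, Drd, Adra, Adrb, Chrm, Chrna, Chrnb or Hrh followed by a digit, which gave 50 of 24062 symbols. The rule used names only and no measured value. There were 14 serotonin, 5 dopamine, 6 alpha adrenergic, 3 beta adrenergic, 5 muscarinic, 13 nicotinic and 4 histamine receptor genes.

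Neurons of the medial preoptic area (MPA) were recorded in brain slices from female Esr1-ZsGreen mice, 10 to 14 weeks old. In these mice a transgene marks cells that express estrogen receptor alpha (ERα) with the green fluorescent protein ZsGreen, and all samples came from ZsGreen+ neurons. The bath was warmed by 5 °C from 25 °C, and neurons whose firing rate rose past the cutoff of the study were temperature-responsive (TR) whereas the others were non-responsive (NR). The contents of 2 neurons of one kind were aspirated and pooled, which gave 4 TR and 3 NR samples, and both kinds had been exposed to the same warming. The labels do not say from how many mice the samples came, so that p-values cover the spread between these samples only. The comparison asks which receptor transcripts differ between neurons that did and did not fire more on warming.

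The 5 transmitter systems act mostly through G protein-coupled receptors. Receptors coupled to Gq (such as Htr2c, Adra1a, Chrm1 and Hrh1) raise intracellular calcium through phospholipase C, those coupled to Gs (Htr4, Htr7, Drd1a, the beta adrenergic receptors) raise cyclic AMP, and those coupled to Gi (Htr1a, Drd2, Adra2a, Chrm4, Hrh3) lower it. Htr3a, Htr3b and the nicotinic genes (Chrna and Chrnb) instead encode subunits of ligand-gated cation channels. Monoamine, cholinergic and histamine fibers reach the preoptic area, where these transmitters are known to act on body temperature and sleep.

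Totals per sample lay between 1914497 and 2814360 counts in TR and between 3309361 and 5125280 in NR samples, and genes with at least 1 count between 19852 and 21177 in TR and between 17818 and 19820 in NR samples. Neither measure overlapped between the groups, so depth and the number of genes detected cannot be told apart from temperature responsiveness. The ERα gene Esr1 had 10 to 27 counts per sample. Although all mice are described as female, the Y-linked gene Ddx3y had 684 to 1150 counts in each sample and Xist, the marker of the inactive X chromosome, 2 to 14. The summed CPM (counts per 1000000, with library sizes scaled by TMM factors) of marker lists for endothelial cells (94.1 to 317 in TR, 17.9 to 64.9 in NR), pericytes and smooth muscle (54.2 to 170 and 29.4 to 39.2) and astrocytes (1090 to 1270 and 882.5 to 1075) was higher in every TR sample. That of striatal projection neurons (277 to 362 and 391 to 444) was lower. The astrocyte markers did not all move together, as 2 of the 5 were higher and 1 was lower in TR samples by the edgeR test described below. Lists of neurons, oligodendrocytes, microglia, choroid plexus, serotonin neurons and the preoptic area overlapped between the groups. Their part in the results below was not tested.

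Nearly all receptor genes gave some signal, most of them a weak one. Of the 50 genes, 39, 42, 43 and 46 reached 3 counts in TR samples 1 to 4, and 45, 42 and 43 did so in NR samples 1 to 3. Thus, detection did not separate the groups. At an equal depth of 1914497 counts, reached by random thinning, the numbers were 38, 42, 41 and 44 in TR and 39, 33 and 40 in NR samples. A floor of 3 counts corresponded to 0.585 to 1.57 CPM. It covers counting error alone, since reads without molecular identifiers need not be independent molecules. In all, 33 genes had at least 3 counts in every sample, none was at 0 in all samples, and 10 reached 100 counts in any sample. Htr1b, an inhibitory serotonin receptor often found at axon terminals, was the 1 gene under 3 counts in all samples. The 50 genes together held 774 to 817 CPM in TR and 741 to 781.5 CPM in NR samples, and these ranges overlapped.

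Htr2c, the Gq-coupled serotonin 2C receptor, held the largest part of the receptor counts in every sample. It took 38.5% ± 3.94 (SD, n = 4) of them in TR samples, ranging from 34.0% to 41.9%, and 27.2% ± 1.73 (SD, n = 3) in NR samples, ranging from 25.2% to 28.2%. The groups did not overlap, and the difference was larger than the spread within either group. Summed over the 14 serotonin receptor genes the level was 400 to 472 CPM in TR and 317 to 323 CPM in NR samples. The muscarinic sum showed the opposite order, with 47.25 to 79.3 CPM in TR and 84.5 to 113 CPM in NR samples, as did the nicotinic sum (86.2 to 115 CPM and 120 to 151 CPM) and the histamine receptor sum (52.6 to 68.0 CPM and 72.2 to 84.3 CPM). Dopamine, alpha adrenergic and beta adrenergic sums overlapped.

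**Figure D1:**
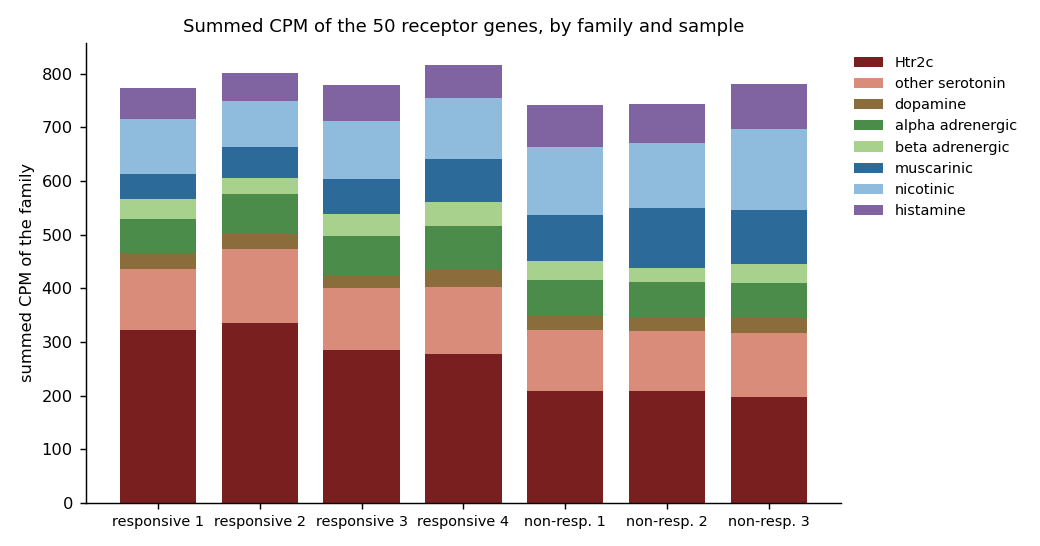
Summed CPM of the 50 receptor genes in each of the 4 TR and 3 NR samples, stacked by family with Htr2c shown apart from the other serotonin receptors (bars start at 0). Htr2c forms the largest block in each sample and is taller in the TR samples, whereas the muscarinic, nicotinic and histamine blocks are taller in the NR samples.

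Levels of different genes were compared per kb of exon. Htr2c had the highest level, at 28.1 CPM per kb on average over the 7 samples (21.1 to 36.1), followed by Hrh3, the Gi-coupled histamine H3 receptor that restrains histamine and other transmitter release, at 15.2 CPM per kb (10.2 to 21.3). Htr2c exceeded Hrh3 in 6 of 7 samples, and Hrh3 exceeded the next gene in all 7. Htr7 (Gs-coupled) and Chrm1 (the M1 muscarinic receptor, Gq-coupled) lay close together at 10.5 and 10.2 CPM per kb, and Htr7 was the higher in 3 of 7 samples. The nicotinic α4 subunit gene Chrna4 (7.95 CPM per kb), the β1 adrenergic receptor gene Adrb1 (7.45), Adra2c (7.08), the D1 dopamine receptor gene Drd1a (5.46), Adra2a (5.27) and the nicotinic β2 subunit gene Chrnb2 (5.19) completed the highest 10, and the sample ranges of neighbors in this order overlapped. With coding length in place of exon length, 9 of these 10 genes stayed among the highest 10.

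**Figure D2:**
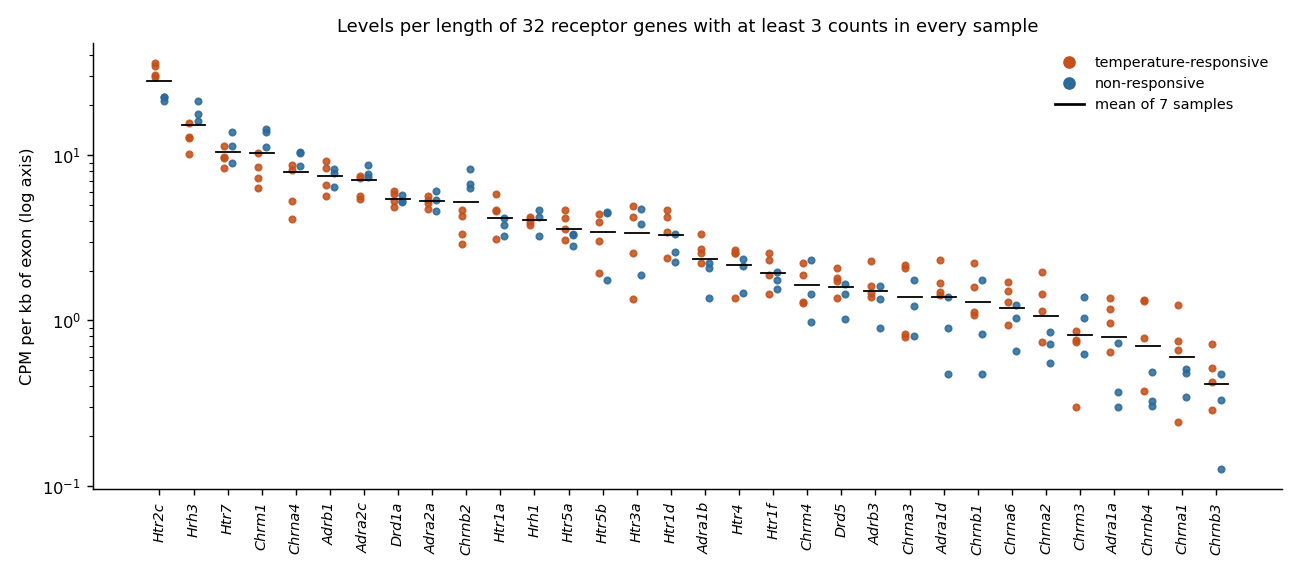
Levels of 32 receptor genes with at least 3 counts in every sample, as CPM per kb of exon on a log axis, with a point for each TR and NR sample and a line at the mean of all 7. Htr2c leads at 28.1 CPM per kb, Hrh3 follows at 15.2, and sample ranges of neighbors overlap.

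Within families, 1 or 2 genes carried most of the signal. The dopamine signal came mostly from Drd1a (19.8 CPM on average) and less from Drd5 (5.00 CPM), whereas Drd2, the D2 receptor gene, had 2 to 8 counts per sample, Drd3 at most 3 and Drd4 at most 6. Both neuronal nicotinic genes Chrna4 and Chrnb2 stood above all others of that family, with Chrna7, the subunit of the homomeric α7 receptor, at 1 to 17 counts. Muscarinic signal came mostly from Chrm1, followed by Chrm3 with 4 to 46 counts and 5.11 CPM on average, and Chrm2, Chrm4 and Chrm5 had at most 42, 11 and 7 counts. The 42 counts of Chrm2, the Gi-coupled M2 receptor gene, were in NR replicate 2, which had 7.96 CPM against 1.61 to 2.72 CPM in the other NR samples. The histamine H1 receptor gene Hrh1 (Gq-coupled) had 31 to 110 counts, and Hrh2 and Hrh4 had at most 13 and 3.

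Counts were compared between TR and NR samples by the quasi-likelihood test of edgeR, adjusted by Benjamini-Hochberg over the 14407 genes that had at least 10 counts in at least 3 samples. Of the 50 receptor genes, 28 met this filter and 22 did not. A gene with an adjusted p under 0.05 is termed called. Log2 fold changes are TR over NR and carry their standard error (SE). Of the 28 genes, 7 were called (25%), against 30.0% of all genes tested, 3 of them higher in TR samples (15.1% of all genes were called higher) and 4 lower (14.9% were called lower). The share of receptor genes called was thus near that of all genes. TR and NR samples were without overlap for 4 of the 28 genes, against 35.4% of all genes tested. The median log2 fold change was 0.18 over the 28 genes and 0.0071 over all genes. Genes called higher included Htr2c and Adra1a, and those called lower were Chrm1, Chrna4, Chrnb2 and Hrh3.

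**Figure D3:**
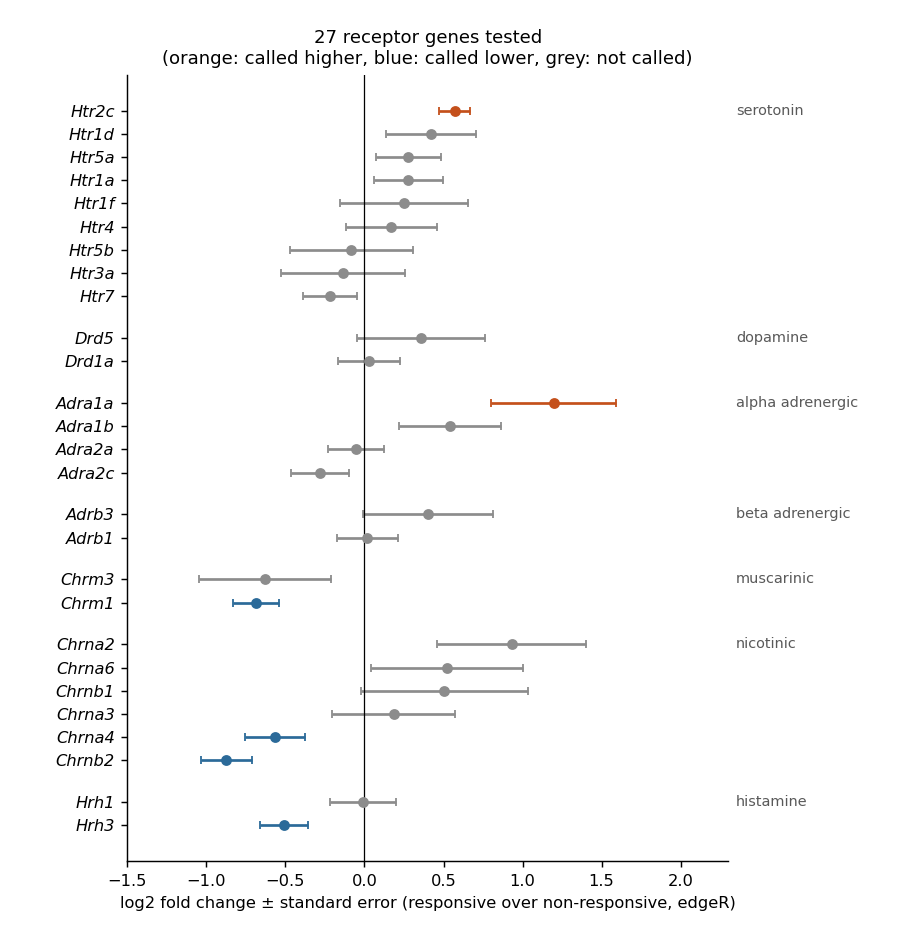
Log2 fold change of TR over NR samples with its standard error (edgeR) for 27 receptor genes tested, grouped by family. Orange points were called higher (2 genes), blue points lower (4 genes) and grey points were not called (21 genes).

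In a fit with the number of detected genes per sample as a covariate (the detection-adjusted fit), none of the 28 genes was called (edgeR). Of the 28, 5 had an unadjusted p under 0.05. Over all 14407 genes 1 was called in this fit, and 2061 had an unadjusted p under 0.05. The number of detected genes separates the same samples as temperature responsiveness does. Across the 28 genes the log2 fold change followed the GC content of the longest transcript (Spearman's rho = -0.438, genes of the same 7 libraries), as it did across 14293 tested genes (-0.342). The genes called higher had 42.1% to 50.1% GC and those called lower 53.0% to 62.2%. With an offset for GC content, 3 genes were called higher and 2 lower, and calls over all genes fell from 4327 to 3519. The number of receptor genes called fell from 7 to 4 without TR replicate 2 or TR replicate 4, and to 3 without NR replicate 3. Calls over all genes fell as well, to 2977, 3858 and 2620 in the same order of fits.

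Htr2c was 1.48-fold higher in TR neurons. It lies on the plus strand of chromosome X of mm10, from 146962513 to 147197277, and encodes a receptor that depolarizes neurons and is a target of appetite-reducing drugs. Its level was 323, 336, 284 and 278 CPM in TR samples 1 to 4 and 209, 209 and 197 CPM in NR samples 1 to 3. Every TR sample was above every NR sample, from 620 to 1105 counts each. The log2 fold change was 0.57 (SE 0.0974, adjusted p = 0.000287, edgeR). It fell to 0.35 with the GC content offset (adjusted p = 0.00868, edgeR) and was 0.54 in the detection-adjusted fit (adjusted p = 0.158, edgeR). Htr2c is also strongly expressed by the choroid plexus, the tissue that secretes cerebrospinal fluid. Of the 6 choroid plexus markers all were tested and 1, the transthyretin gene Ttr, was called higher (284 ± 30.5 CPM, n = 4, and 229 ± 44.7 CPM, n = 3). The other 5 were not called, with Kcnj13 at -0.58, Clic6 at -0.25, Folr1 at -0.21, Kl at 0.099 and Otx2 at 0.24 on the log2 scale. Ttr averaged 260.5 CPM and the others 6.58 to 28.9 CPM each, so that Ttr dominated the summed list, which was 322 to 413 CPM in TR and 277 to 355 CPM in NR samples.

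Among the other serotonin receptor genes, 8 were tested and none was called. Htr7 had 28.5 to 38.8 CPM in TR and 30.4 to 47.1 CPM in NR samples, at log2 fold change -0.22 (SE 0.170, adjusted p = 0.356, edgeR). The Gi-coupled receptor gene Htr1a had 20.4 ± 4.91 CPM (SD, n = 4) in TR and 16.6 ± 2.04 CPM (SD, n = 3) in NR samples, and Htr5a had 20.7 ± 3.69 and 16.9 ± 1.55 CPM. Both had a log2 fold change of 0.28 with overlapping groups (adjusted p = 0.355 and 0.328, edgeR). Thus, the serotonin receptor difference that passed the test was that of Htr2c.

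Transcripts of both subunits of the main nicotinic receptor of the brain were lower in TR neurons, Chrnb2 by 1.83-fold and Chrna4 by 1.48-fold. Chrnb2, the β2 subunit gene, lies on the minus strand of chromosome 3 from 89746195 to 89764632. It had 28.1, 24.4, 35.8 and 38.9 CPM in TR samples 1 to 4 and 52.8, 55.7 and 68.6 CPM in NR samples 1 to 3. The groups were well apart, and the log2 fold change was -0.87 (SE 0.161, adjusted p = 0.000503, edgeR). It stayed between -0.98 and -0.75 with each sample left out in turn and past the threshold each time. In the detection-adjusted fit it was -0.65 (adjusted p = 0.266, edgeR). Of its exonic bases, 16.3% are shared with Adar on the other strand, which was itself lower in TR samples (log2 fold change -0.59). As counting by strand is not stated, reads in the shared part cannot be assigned to one gene.

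Chrna4, the α4 subunit gene whose product assembles with that of Chrnb2, lies on the minus strand of chromosome 2 from 181018380 to 181043546. Its level was 44.0, 20.6, 40.6 and 26.5 CPM in TR samples 1 to 4 and 51.9, 43.4 and 52.4 CPM in NR samples 1 to 3. TR replicates 2 and 4 were far below the NR samples, whereas TR replicate 1 was within their range. The log2 fold change of -0.57 (SE 0.189, adjusted p = 0.0263, edgeR) did not pass the threshold without TR replicate 2 (-0.41), TR replicate 4 (-0.46), NR replicate 1 (-0.53) or NR replicate 3 (-0.52). With the GC content offset it was -0.49 (adjusted p = 0.0722, edgeR) and in the detection-adjusted fit -0.18. Together, both genes took 5.62% to 9.80% of the receptor counts in TR and 13.3% to 15.5% in NR samples. The per-kb ratio of Chrna4 to Chrnb2 varied from 1.14 to 2.61 in TR and from 1.28 to 1.64 in NR samples. The other 4 nicotinic genes tested (Chrna2, Chrna3, Chrna6 and Chrnb1) had log2 fold changes of 0.18 to 0.93 and at most 46 counts, and none was called.

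The RefSeq promoter windows (GRCm38.p6, 250 bases before to 50 after the transcription start) of Htr2c and of both nicotinic genes are shown because these were the highest receptor gene, which rose, and the co-assembling pair that fell. Windows were found for 38 of the 50 receptor genes, and the RefSeq start of Chrna4 lies inside the GENCODE gene model given above. They are written 5′ to 3′ on the strand of the gene, and capitals mark GGGCGG, the core of the GC box that Sp-family factors bind, or its complement.
Htr2c, plus strand of chrX:146962263-146962562: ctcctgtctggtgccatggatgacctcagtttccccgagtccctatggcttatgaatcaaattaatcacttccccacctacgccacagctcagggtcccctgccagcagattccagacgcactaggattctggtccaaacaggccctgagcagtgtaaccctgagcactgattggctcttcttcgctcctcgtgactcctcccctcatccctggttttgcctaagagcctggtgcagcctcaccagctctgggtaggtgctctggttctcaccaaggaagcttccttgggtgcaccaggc
Chrna4, minus strand of chr2:181039128-181039427: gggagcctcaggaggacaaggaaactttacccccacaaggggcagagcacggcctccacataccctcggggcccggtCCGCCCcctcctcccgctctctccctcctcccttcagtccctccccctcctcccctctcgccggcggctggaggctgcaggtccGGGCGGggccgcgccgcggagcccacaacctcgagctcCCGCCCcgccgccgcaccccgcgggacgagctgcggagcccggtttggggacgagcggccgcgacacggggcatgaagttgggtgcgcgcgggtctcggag
Chrnb2, minus strand of chr3:89764583-89764882: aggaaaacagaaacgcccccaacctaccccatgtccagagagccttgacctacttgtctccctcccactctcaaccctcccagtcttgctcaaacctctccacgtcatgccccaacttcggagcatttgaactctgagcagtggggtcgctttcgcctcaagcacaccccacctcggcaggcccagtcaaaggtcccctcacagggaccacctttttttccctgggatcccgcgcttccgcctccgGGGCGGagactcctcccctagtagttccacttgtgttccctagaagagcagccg
The Chrna4 window had 3 GGGCGG matches on either strand, the Chrnb2 window 1 and the Htr2c window 0. Of all 32851 RefSeq promoter windows of the same length, 35.7% held at least 1. CpG pairs numbered 33 in Chrna4, 12 in Chrnb2 and 5 in Htr2c. The median was 7 over all promoter windows and 14 over the receptor windows. TGACG, the core of the cyclic AMP response element, occurred once in Chrnb2 (20.8% of all windows), CCAAT once in Htr2c (37.4%) and TATAAA in none of the 3 (13.6%), with both strands searched. Receptor windows held GGGCGG in 28 of 47 cases (59.6%). These are matches of letters and not sites of binding.

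Chrm1 was 1.61-fold lower in TR neurons. It encodes the M1 muscarinic receptor, which excites neurons by closing potassium channels, and lies on the plus strand of chromosome 19 from 8663789 to 8683587. Its level was 41.2, 47.2, 54.9 and 66.9 CPM in TR samples 1 to 4 and 72.7, 93.2 and 89.1 CPM in NR samples 1 to 3, without overlap. A gene model on the other strand shares 5.1% of its exonic bases. The log2 fold change was -0.69 (SE 0.144, adjusted p = 0.00127, edgeR). It was -0.67 with the GC content offset and between -0.82 and -0.59 with each sample left out, past the threshold in each of these fits. In the detection-adjusted fit it was -0.67 (adjusted p = 0.227, edgeR). Chrm3, the only other muscarinic gene tested, had 4 to 46 counts and a log2 fold change of -0.63 (SE 0.416, adjusted p = 0.261, edgeR). Beside this, the striatal list was lower in TR samples, with 3 of its 5 tested markers called lower.

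Hrh3 was 1.42-fold lower in TR neurons, whereas Hrh1 did not pass the test. Hrh3, on the minus strand of chromosome 2 from 180099465 to 180104488, had 40.2, 32.0, 49.0 and 39.6 CPM in TR samples 1 to 4 and 55.8, 50.4 and 67.1 CPM in NR samples 1 to 3. The highest TR sample lay just below the lowest NR sample. A gene model on the other strand shares 11.1% of its exonic bases. The log2 fold change was -0.51 (SE 0.153, adjusted p = 0.0139, edgeR). It lost the threshold without TR replicate 2 (-0.42) or NR replicate 3 (-0.38). With the GC content offset it was -0.29 (adjusted p = 0.149, edgeR) and in the detection-adjusted fit -0.21. Hrh1 had 16.8 to 18.8 CPM in TR and 14.5 to 20.8 CPM in NR samples, with a log2 fold change of -0.011 (SE 0.209, adjusted p = 0.977, edgeR).

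Adra1a was 2.29-fold higher in TR neurons, on few counts. Adra1a, the gene of the Gq-coupled α1A receptor, lies on the plus strand of chromosome 14 from 66635251 to 66771168. It had 5.61, 11.9, 8.41 and 10.3 CPM in TR samples 1 to 4 and 6.34, 3.22 and 2.62 CPM in NR samples 1 to 3, from 12 to 29 counts. TR replicate 1 lay below NR replicate 1, so the groups overlapped. The log2 fold change of 1.20 (SE 0.397, adjusted p = 0.0244, edgeR) did not pass the threshold without TR replicate 2 (1.06), TR replicate 4 (1.13), NR replicate 2 (1.06) or NR replicate 3 (0.96), nor at equal depth (1.14, adjusted p = 0.0736, edgeR). In the detection-adjusted fit it was 0.031. The endothelial list, 2 of whose 5 markers were called higher, and the pericyte list, 4 of 5, were also higher in TR samples. Because the samples hold RNA of several cell types, more cells of a type and more RNA per cell cannot be told apart.

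Adrb1, Adra2a and Adra2c did not pass the test. Adrb1 had 19.2 to 31.1 CPM in TR and 21.6 to 27.8 CPM in NR samples (log2 fold change 0.018, SE 0.192, adjusted p = 0.954, edgeR). Of the Gi-coupled α2 receptor genes, Adra2a was at 25.2 ± 1.91 CPM (SD, n = 4) and 25.9 ± 3.52 CPM (SD, n = 3) and Adra2c at 22.2 ± 3.63 and 27.3 ± 2.31 CPM. Their log2 fold changes of -0.051 and -0.28 had adjusted p of 0.854 and 0.259 (edgeR). At these counts, standard errors of 0.178 and 0.184 on the log2 scale do not show that the groups were alike.

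Dopamine receptor genes gave no call. Drd1a, which is named Drd1 in current annotation, had 19.2, 21.2, 17.6 and 21.9 CPM in TR samples 1 to 4 and 20.8, 18.8 and 19.2 CPM in NR samples 1 to 3. The samples were interleaved, with a log2 fold change of 0.030 (SE 0.196, adjusted p = 0.926, edgeR). Drd5, the other Gs-coupled dopamine receptor gene, had 8 to 26 counts and a log2 fold change of 0.36 (SE 0.407, adjusted p = 0.538, edgeR). A gene model on the other strand covers 48.6% of its exonic bases.

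**Figure D4:**
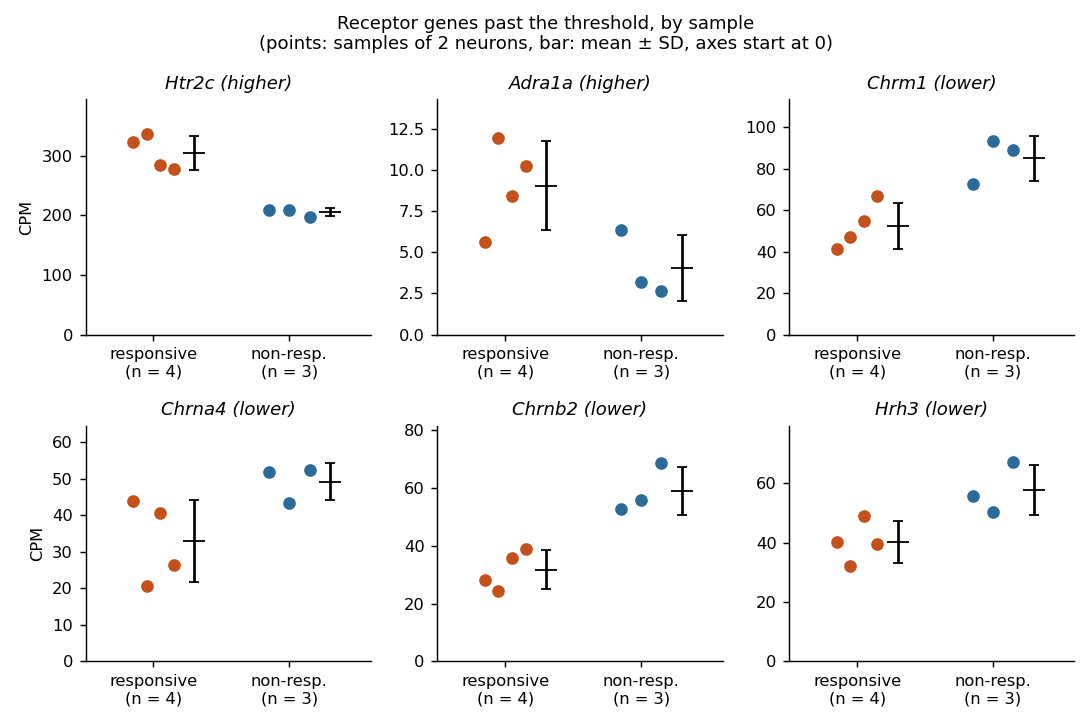
CPM of 6 called receptor genes in each sample (points, 4 TR and 3 NR), with mean and SD beside them and axes from 0. The groups are apart for Htr2c, Chrm1, Chrnb2 and Hrh3 and overlap for Adra1a and Chrna4.

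The 22 receptor genes that were not tested averaged 0.162 to 2.95 CPM over the samples, with at most 42 counts in any of them. TR and NR samples were apart for 2 of the 22, against 16.7% of the 8390 untested genes with at least 1 count. Adra1d, an α1 adrenergic receptor gene, had 2.71 to 4.39 CPM in TR and 0.905 to 2.62 CPM in NR samples. Chrna9, a nicotinic subunit gene known from the inner ear, had 1.08 to 2.83 CPM in TR and 0 to 0.603 CPM in NR samples. All 3 NR samples were under the floor of 3 counts, as was TR replicate 2 with 2 counts. In a fit of all genes with at least 1 count, Chrna9 (adjusted p = 0.0485, edgeR) and Adra2b (adjusted p = 0.0302, edgeR) passed the threshold, and Adra1d did not (adjusted p = 0.361, edgeR). In that fit 9 of the 50 receptor genes were called, against 24.7% of all 22797 genes.

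A list of 27 other genes of these pathways, comprising receptor kinases, arrestins, receptor chaperones and modulators and genes that make or break down acetylcholine and histamine, had 26 genes tested. Of these, 9 were called lower and 1 higher, and their median log2 fold change was 0.0145. Of all genes tested, 14.9% were called lower and 15.1% higher, and with upper quartile normalization 6 of the list were lower and 3 higher. The list was drawn up with results of these data known. The largest falls were those of Ly6e (log2 fold change -0.74, adjusted p = 0.000250, edgeR), Lynx1 (-0.74, adjusted p = 6.57e-05, edgeR), Arrb2 (-0.59, adjusted p = 0.00915, edgeR) and Ppp1r1b (-0.55, adjusted p = 0.0200, edgeR). Lynx1 encodes a membrane-anchored inhibitor of nicotinic receptors, Ly6e a relative of it, Arrb2 the arrestin that desensitizes G protein-coupled receptors and Ppp1r1b the dopamine-regulated phosphatase inhibitor DARPP-32, which is also a marker of the striatal list. Lynx1 had 83.0 to 108 CPM in TR and 161 to 168 CPM in NR samples. The ranges of all 4 genes were apart, but these were picked for their large changes, and 35.4% of all genes tested were apart. For Ppp1r1b the highest TR sample (38.58 CPM) nearly met the lowest NR sample (38.62 CPM), as for Arrb2 (47.17 and 48.13 CPM). The number called fell from 10 to 5 without TR replicate 2, to 6 without NR replicate 2 and to 6 without NR replicate 3. In the same order of fits, calls over all genes fell from 4327 to 2977, 2986 and 2620. None of the list was called in the detection-adjusted fit (edgeR), in which 1 of all genes was called. Chat, which makes acetylcholine, had 1 to 11 counts per sample, and Hdc, which makes histamine, had 23 to 105 counts and gave -0.066 for the log2 fold change (adjusted p = 0.851, edgeR).

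**Figure D5:**
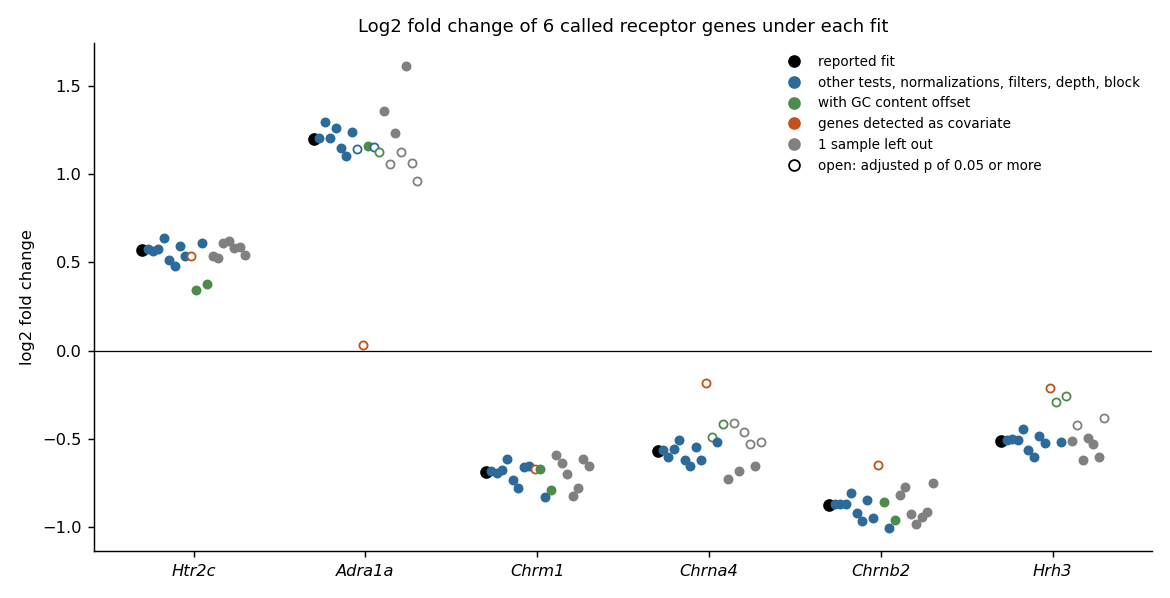
Log2 fold change of 6 called receptor genes in the reported fit (black) and in each alternative, with open symbols where the adjusted p was 0.05 or more. Htr2c, Chrm1 and Chrnb2 lose the threshold only in the detection-adjusted fit, whereas Adra1a, Chrna4 and Hrh3 also lose it in other fits.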

How the data were processed

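RNA from pools of 2 aspirated neurons was amplified with the SMART-seq V4 kit and made into Nextera XT libraries. Per the labels and the submitters' processing notes, the authors used FastQC 0.72, STAR 2.6.0 and HTSeq 0.9.1 with mm10, removed PCR duplicates with RmDup before counting and deposited whole-number read counts per gene symbol, 1 table for each of the 7 samples. The annotation version and strand setting are not given in the sources used here. Duplicates were removed without molecular identifiers, so counts need not be independent molecules, and weak genes are noisy at 1914497 to 5125280 counts per sample.

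Counts were tested with edgeR 4.0.16 (quasi-likelihood, TMM factors, all 7 samples, genes reaching 10 counts in 3 or more samples, Benjamini-Hochberg threshold 0.05) under R 4.3.3. The scripts were tested on simulated data. Positions and lengths came from GENCODE M21 (mm10), which matched 98.4% of symbols. Alternatives were DESeq2 1.42.0, limma-voom (limma 3.58.1), other normalizations and filters, equal depth, a GC content offset (mgcv 1.9.3), the number of genes detected, a replicate block and leaving out each sample. Genes named with full values were the called receptors, the leading genes of each family and the largest changes of the pathway list. The members and lists were chosen with earlier results of these data known. 1 gene of the rule enters the counts and sums but is not reported here by name.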

Additional observations from a re-analysis of the deposited data

How the results depend on the processing

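All 7 receptor calls were kept with DESeq2, limma-voom, RLE, upper quartile and library size normalization. In the detection-adjusted fit the number called was 0 of 28 receptor genes and 0 of the pathway list (edgeR), with 5 receptor genes at an unadjusted p under 0.05, and over all genes 1 was called and 2061 had an unadjusted p under 0.05. Leaving out 1 sample gave 3 to 7 receptor genes, 3 without NR replicate 3 and 4 without TR replicate 2 or TR replicate 4, and 5 to 11 genes of the pathway list. Calls over all genes then lay between 2620 (without NR replicate 3) and 4583 (without NR replicate 1), against 4327 with all samples. Calls higher and lower numbered 3 and 2 with the GC content offset and 1 and 4 at equal depth. Over all genes 3519 and 3629 were called in these fits. Same-numbered TR and NR samples did not deviate together (correlations -0.128, -0.0618 and 0.0316, against 0.0174 on average for differently numbered samples). So few samples cannot show whether the numbers pair them, and the labels do not say. A replicate block gave 5 receptor genes (1 higher, 4 lower), and adding the GC content offset to that block gave 3. Over all genes 4124 and 2868 were called in these fits. The median number of receptor genes detected was 48 in TR and 47 in NR samples at 1 count, 26.5 and 30 at 10 counts, and 41.5 and 39 at equal depth, against 42.5 and 43 as reported at 3 counts, so that the order of the groups turned at equal depth and at 1 count.

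Of 281 values of 15 genes under alternatives, 222 kept direction and side of the threshold, 30 lost the threshold and 29 changed sign, all 29 of genes that were not called. Adra2a was 0.016 with upper quartile normalization, 0.029 detection-adjusted, 0.075 after the GC content offset, 0.084 after that offset plus the replicate block, and -0.14 to 0.053 with 1 sample left out. Adra2c was 0.020 after the GC content offset and 0.0050 once the block was added. Adrb1 was -0.029 on library size, -0.073 without the count filter, -0.067 detection-adjusted, -0.12 with the replicate block and -0.098 to 0.12 with 1 sample left out. Drd1a was -0.020 on library size, -0.062 without the count filter, -0.15 detection-adjusted, -0.095 with the GC content offset, -0.025 with the replicate block, -0.15 with both, and -0.018 to 0.096 with 1 sample left out. Hrh1 was 0.018 with limma-voom, 0.055 with upper quartile normalization, 0.013 when every sample had to reach 10 counts, and -0.15 to 0.12 with 1 sample left out. The cause of these changes was not tested. The 22 receptor genes under the count filter were not tested in the reported fit, and low depth and low expression were not told apart for them.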
